A study of Mus musculus with 8 samples.

Results

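The genes described here are 8 markers of CD11b+ dendritic cells, Tmem176a, Tmem176b, Sirpa, Cd209a, Cd4, Esam, Clec4a4 and Itgam, followed in dendritic cells of the other conventional lineage, the XCR1+ cells of mouse spleen. They were taken by symbol: each had 1 row of its own in the array table, 8 of the 19938 genes measured as a single symbol. Expression was measured on 8 arrays, 1 for each sorted sample. All mice were untreated and carried the Il12b-EYFP reporter, a yellow fluorescent protein that marks cells using the Il12b gene; the labels used here give neither age nor strain background. From CD8α+ cells rich in CD11c, lacking lineage markers and with little or no BST2, the authors sorted CCR7+ cells with the reporter (CCR7+Il12b+, n = 2), CCR7+ cells without it (CCR7+Il12b-, n = 3) and immature cells with neither (n = 3). The labels call both CCR7+ fractions matured at homeostasis, so the comparisons address how expression differs with that maturation. None of the 8 marker genes encodes a protein listed in the sort. In RNA from sorted populations, fewer cells of a type and less RNA per cell cannot be told apart.

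Conventional dendritic cells of the spleen form a XCR1+ lineage, known for presenting engulfed antigen on class I molecules, and a CD11b+ lineage that also carries SIRPα and is known for priming CD4 T cells. The CD11b+ lineage depends on IRF4, and its ESAM+ and CD4+ members in the mouse spleen depend on Notch2. CCR7, the receptor that leads dendritic cells to T cell zones, appears when either lineage matures. TMEM176A and TMEM176B are related proteins that span internal membranes of endosomes several times and are distant relatives of the MS4A family. SIRPα binds CD47 and sends an inhibitory signal, CD209a and CLEC4A4 (DCIR2, recognised by the antibody 33D1) are C-type lectins, CD4 is the co-receptor for class II molecules on T cells, ESAM is an adhesion molecule of cell junctions, and Itgam encodes CD11b, which pairs with the integrin chain encoded by Itgb2.

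Tmem176a and Tmem176b are neighbours that are read in opposite directions, and they moved together below, so the DNA between them is shown. RefSeq promoter windows (GRCm38.p6, 250 bases before to 50 after a start site) were found for 4 of the 8 genes, Tmem176a, Tmem176b, Cd209a and Itgam, with 7 windows in all. Tmem176a had 2 of these and Tmem176b had 3. The Tmem176b window shown is that with the start site nearest to the start of the Tmem176a window shown, 109 bases away. Which start sites these cells use was not measured. The first window is chr6:48841233-48841532 on the plus strand and the second chr6:48841325-48841624 on the minus strand, each printed 5′ to 3′ in its own direction. The capitals mark the 208 bases that both windows share, which are the reverse complement of each other. The third, chr8:3748935-3749234 on the minus strand, belongs to Cd209a, the gene that moved the other way, and has no capitals.
Tmem176a: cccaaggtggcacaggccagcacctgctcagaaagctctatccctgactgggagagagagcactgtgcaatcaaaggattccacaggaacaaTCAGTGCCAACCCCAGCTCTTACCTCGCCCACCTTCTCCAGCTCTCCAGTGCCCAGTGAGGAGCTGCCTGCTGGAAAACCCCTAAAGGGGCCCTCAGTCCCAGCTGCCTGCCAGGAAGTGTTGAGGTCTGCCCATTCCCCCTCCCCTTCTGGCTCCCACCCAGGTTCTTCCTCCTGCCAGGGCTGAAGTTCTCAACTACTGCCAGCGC
Tmem176b: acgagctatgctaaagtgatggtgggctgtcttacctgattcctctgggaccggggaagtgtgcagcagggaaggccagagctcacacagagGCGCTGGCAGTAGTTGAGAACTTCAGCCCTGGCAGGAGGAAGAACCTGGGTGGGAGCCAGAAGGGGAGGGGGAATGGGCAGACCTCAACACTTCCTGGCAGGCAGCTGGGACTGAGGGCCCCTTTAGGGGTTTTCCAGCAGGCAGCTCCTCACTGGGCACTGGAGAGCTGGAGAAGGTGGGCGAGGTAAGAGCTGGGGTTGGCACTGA
Cd209a: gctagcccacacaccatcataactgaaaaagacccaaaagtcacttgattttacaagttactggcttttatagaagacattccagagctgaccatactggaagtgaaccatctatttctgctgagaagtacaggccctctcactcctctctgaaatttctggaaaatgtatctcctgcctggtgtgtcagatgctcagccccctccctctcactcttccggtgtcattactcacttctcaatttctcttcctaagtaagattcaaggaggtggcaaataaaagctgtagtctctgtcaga
Both strands of the windows were searched for the letters of 5 motifs. The kappaB motif occurred once in the shared stretch, as GGGGTTTTCC 32 bases before the Tmem176b start and, read from the other side, 86 bases before the Tmem176a start. The motif is common, since 50.8% of 32851 promoter windows of this length hold it. The ETS letters AGGAAGT also occurred once there, 69 bases before the Tmem176b start and 46 before that of Tmem176a, not overlapping the kappaB match, and 9.35% of windows hold them. The letters TGANTCA (AP-1, in 7.81% of windows), TGGGAA (RBPJ, 25.6%) and the ISRE motif (3.44%) were not in either printed Tmem176 window. Another Tmem176a window, chr6:48841406-48841705, not printed, did hold the RBPJ letters, on the opposite strand 31 bases before its start. None of the 5 was in the Cd209a window.

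Levels are log2 values made by the authors with RMA, and a level is compared only with the same gene's level on other arrays. A level under 4.98, which 95% of the genes of olfactory and vomeronasal receptors do not exceed, is called below the background mark. By this mark Clec4a4 was below background in all 3 fractions, and Itgam, which encodes CD11b itself, averaged 4.91 ± 0.0056 in CCR7+Il12b+ (SD, n = 2), 5.16 ± 0.088 in CCR7+Il12b- and 5.09 ± 0.22 in immature cells (SD, n = 3 each). The other 6 markers lay above it in each fraction. All 16 measured genes of XCR1+ identity, among them Xcr1 and Cd8a, also lay above it in each fraction. The samples thus carried transcripts of their labelled type beside those of the 6 markers above the mark. Il12b itself averaged 12.28 in CCR7+Il12b+, 10.81 in CCR7+Il12b- and 7.03 in immature cells. Cells sorted without the reporter therefore also held Il12b RNA, at a higher level in CCR7+Il12b- than in immature cells. The CCR7+ fractions differ in reporter signal and Il12b level, not in the presence of Il12b RNA.

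**Figure D1:**
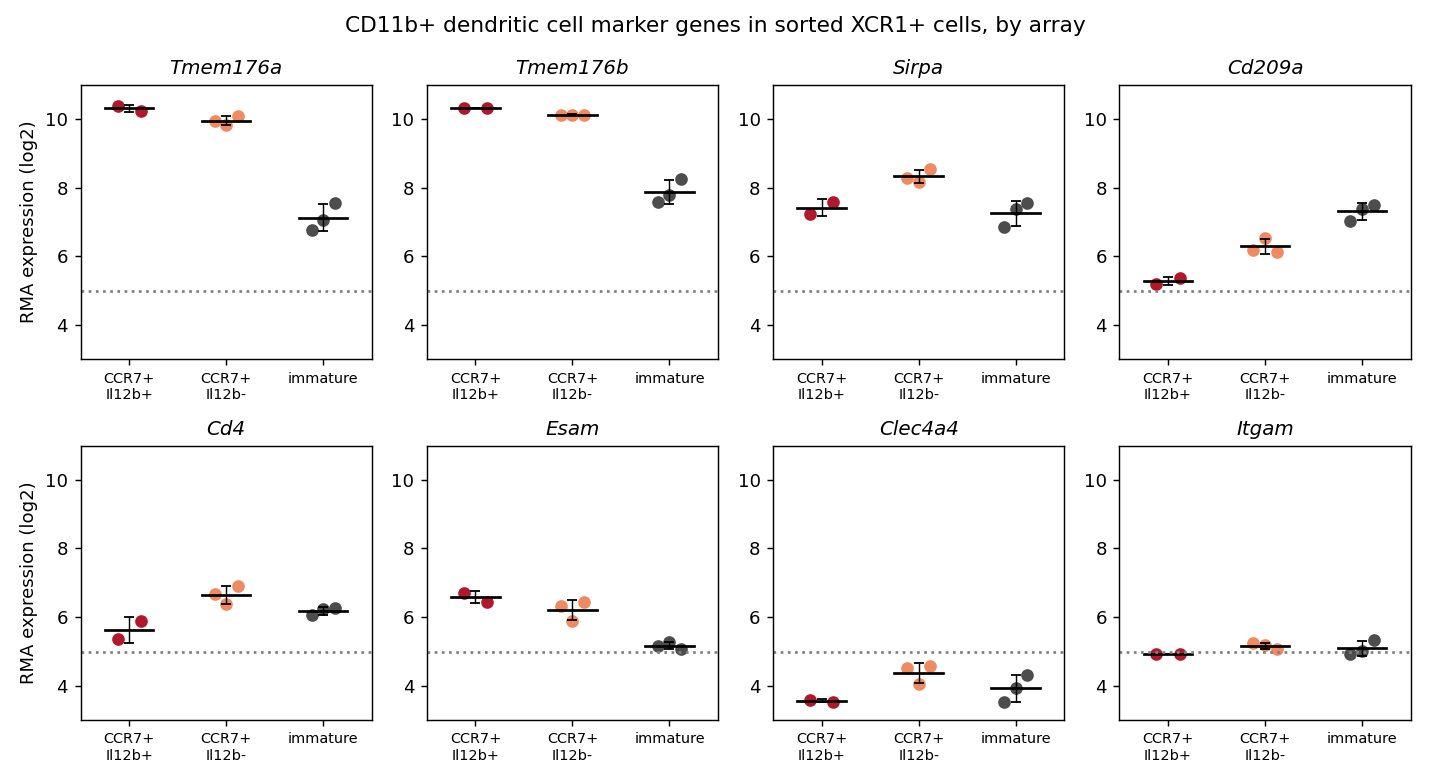
RMA expression (log2) of the 8 marker genes on each array (points), with group mean (bar) and SD (whiskers), in CCR7+Il12b+ (n = 2), CCR7+Il12b- (n = 3) and immature (n = 3) cells; the dotted line is the background mark of 4.98. Tmem176a and Tmem176b stand near 10 in both CCR7+ fractions and below 8.3 in immature cells, Cd209a steps down toward CCR7+Il12b+ cells, and Sirpa and Cd4 are highest in CCR7+Il12b- cells.

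The 8 genes did not move as 1 group. Against immature cells, 5 of 8 passed limma's test (adjusted p under 0.05 over all 19938 genes) in each CCR7+ fraction: 3 higher and 2 lower in CCR7+Il12b+ cells, and 4 higher and 1 lower in CCR7+Il12b- cells. Among all genes 32.0% passed in CCR7+Il12b+ cells (14.1% higher, 17.9% lower) and 23.6% in CCR7+Il12b- cells (9.10% higher, 14.5% lower). Between CCR7+Il12b+ and CCR7+Il12b- cells 4 of 8 passed, all lower and 1 of them, Clec4a4, below the background mark, where 7.08% of all genes passed (2.61% higher, 4.47% lower). The median log2 change of the 8 was -0.0063 in CCR7+Il12b+ cells and 0.75 in CCR7+Il12b- cells against immature cells, and -0.53 between the CCR7+ fractions, while that of all genes was 0.093, 0.061 and 0.020. Both comparisons against immature cells share the same 3 immature arrays.

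Tmem176a and Tmem176b rose strongly in both CCR7+ fractions. Tmem176a stood at 10.40 and 10.25 in CCR7+Il12b+ cells, at 9.94, 9.84 and 10.10 in CCR7+Il12b- cells and at 6.76, 7.07 and 7.54 in immature cells. Each CCR7+ array thus lay over 2 log2 units above every immature one, and the immature arrays were the most spread. The change was 9.20-fold in CCR7+Il12b+ cells (log2 change 3.20 ± 0.19 SE, limma adjusted p = 4.98e-07) and 7.14-fold in CCR7+Il12b- cells (2.84 ± 0.17, limma adjusted p = 1.06e-06). Tmem176b stood at 10.34 and 10.32 in CCR7+Il12b+ cells, at 10.14, 10.13 and 10.11 in CCR7+Il12b- cells and at 7.58, 7.80 and 8.25 in immature cells. It rose 5.47-fold in CCR7+Il12b+ cells (2.45 ± 0.17, limma adjusted p = 1.17e-06) and 4.75-fold in CCR7+Il12b- cells (2.25 ± 0.15, limma adjusted p = 2.23e-06). Neither gene passed between the CCR7+ fractions. For Tmem176a that difference was 0.37 with a 95% interval of -0.062 to 0.79, and for Tmem176b 0.20 with an interval of -0.17 to 0.58, although the 2 CCR7+Il12b+ arrays lay above the 3 CCR7+Il12b- arrays for each gene.

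The lectin gene Cd209a went the other way, in steps of about 1 log2 unit. It stood at 5.19 and 5.36 in CCR7+Il12b+ cells, at 6.20, 6.54 and 6.13 in CCR7+Il12b- cells and at 7.03, 7.39 and 7.50 in immature cells, and no array of 1 fraction reached into the next. The fall was 4.10-fold in CCR7+Il12b+ cells (-2.03 ± 0.17, limma adjusted p = 4.05e-06) and 2.03-fold in CCR7+Il12b- cells (-1.02 ± 0.15, limma adjusted p = 0.00058). The CCR7+ fractions differed by -1.01 ± 0.17 (limma adjusted p = 0.00459), a call that narrowly ended without CCR7+Il12b+ replicate 1 (limma adjusted p = 0.0532). The other lectin gene, Clec4a4, stood at 3.58 and 3.53 in CCR7+Il12b+ cells, at 4.50, 4.03 and 4.58 in CCR7+Il12b- cells and at 3.52, 3.93 and 4.30 in immature cells. All of these values lie below the background mark, so no fold is given. Its difference between the CCR7+ fractions, measured within background signal, passed narrowly (-0.82 ± 0.22, limma adjusted p = 0.0481) and ended under 5 of 8 omissions of a single array and 5 of 9 other settings.

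Sirpa was highest in the CCR7+Il12b- fraction. It stood at 7.24 and 7.59 in CCR7+Il12b+ cells, at 8.30, 8.16 and 8.53 in CCR7+Il12b- cells and at 6.84, 7.37 and 7.54 in immature cells. The CCR7+Il12b- arrays lay above all others, while CCR7+Il12b+ and immature arrays overlapped. The rise in CCR7+Il12b- cells was 2.11-fold (1.08 ± 0.18, limma adjusted p = 0.00137), and CCR7+Il12b+ cells were 1.88-fold lower than CCR7+Il12b- cells (-0.91 ± 0.20, limma adjusted p = 0.0211). Against immature cells the CCR7+Il12b+ difference was 0.17 with a 95% interval of -0.28 to 0.61 (limma adjusted p = 0.571). The call between the CCR7+ fractions ended without CCR7+Il12b+ replicate 1 (limma adjusted p = 0.163) or CCR7+Il12b- replicate 1 (limma adjusted p = 0.05003).

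Cd4 was also highest in CCR7+Il12b- cells, but lowest in CCR7+Il12b+ cells. It stood at 5.36 and 5.89 in CCR7+Il12b+ cells, at 6.66, 6.37 and 6.89 in CCR7+Il12b- cells and at 6.04, 6.23 and 6.27 in immature cells, with no overlap between any 2 fractions. CCR7+Il12b+ cells were 2.02-fold lower than CCR7+Il12b- cells (-1.02 ± 0.18, limma adjusted p = 0.00744), which became -0.75 (limma adjusted p = 0.0783) without CCR7+Il12b+ replicate 1. Against immature cells Cd4 was 1.47-fold lower in CCR7+Il12b+ cells (-0.56 ± 0.18, limma adjusted p = 0.0394), and without CCR7+Il12b+ replicate 1 this was -0.29 (limma adjusted p = 0.282); leaving out immature replicate 2 or 3 also ended the call (limma adjusted p = 0.103 and 0.112). In CCR7+Il12b- cells its difference from immature cells was 0.46 ± 0.16, just outside the threshold (limma adjusted p = 0.0681).

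Esam followed the pattern of the Tmem176 genes at lower amplitude. It stood at 6.71 and 6.45 in CCR7+Il12b+ cells, at 6.33, 5.87 and 6.43 in CCR7+Il12b- cells and at 5.15, 5.27 and 5.08 in immature cells, the last close to the background mark. It rose 2.67-fold in CCR7+Il12b+ cells (1.41 ± 0.17, limma adjusted p = 6.26e-05) and 2.06-fold in CCR7+Il12b- cells (1.04 ± 0.15, limma adjusted p = 0.000514). The CCR7+ fractions differed by 0.37, with a 95% interval of -0.00055 to 0.74 (limma adjusted p = 0.275). Itgam stood at 4.91 and 4.92 in CCR7+Il12b+ cells, at 5.23, 5.18 and 5.06 in CCR7+Il12b- cells and at 4.93, 5.005 and 5.34 in immature cells. None of its 3 comparisons passed, with 95% intervals of -0.48 to 0.13 for CCR7+Il12b+ and -0.20 to 0.34 for CCR7+Il12b- against immature cells and -0.55 to 0.058 between the CCR7+ fractions. Another 3 rows of the table carry Itgam together with the ribosomal gene Rpl35 and were not used.

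Groups were free of overlap for 6 of 8 markers in CCR7+Il12b+ and 6 of 8 in CCR7+Il12b- against immature cells, beside 57.1% and 41.3% of all genes. Between the CCR7+ fractions all 8 were free of overlap, beside 29.6% of all genes. Of these 8, Tmem176a, Tmem176b and Esam were higher and the other 5 lower in CCR7+Il12b+ cells. Among the 5, every Clec4a4 value and all CCR7+Il12b+ values of Itgam lay below the background mark. Itgam is also among the 6 markers in CCR7+Il12b+ against immature cells. There its highest CCR7+Il12b+ value was 4.917 and its lowest immature value 4.931, each below the mark. The calls between the CCR7+ fractions depend on single arrays, with 0 of 8 left without CCR7+Il12b+ replicate 1 and 2 of 8 without CCR7+Il12b- replicate 1. Calls over all genes fell with these omissions too, to 712 and 925, against 1412 with every array.

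**Figure D2:**
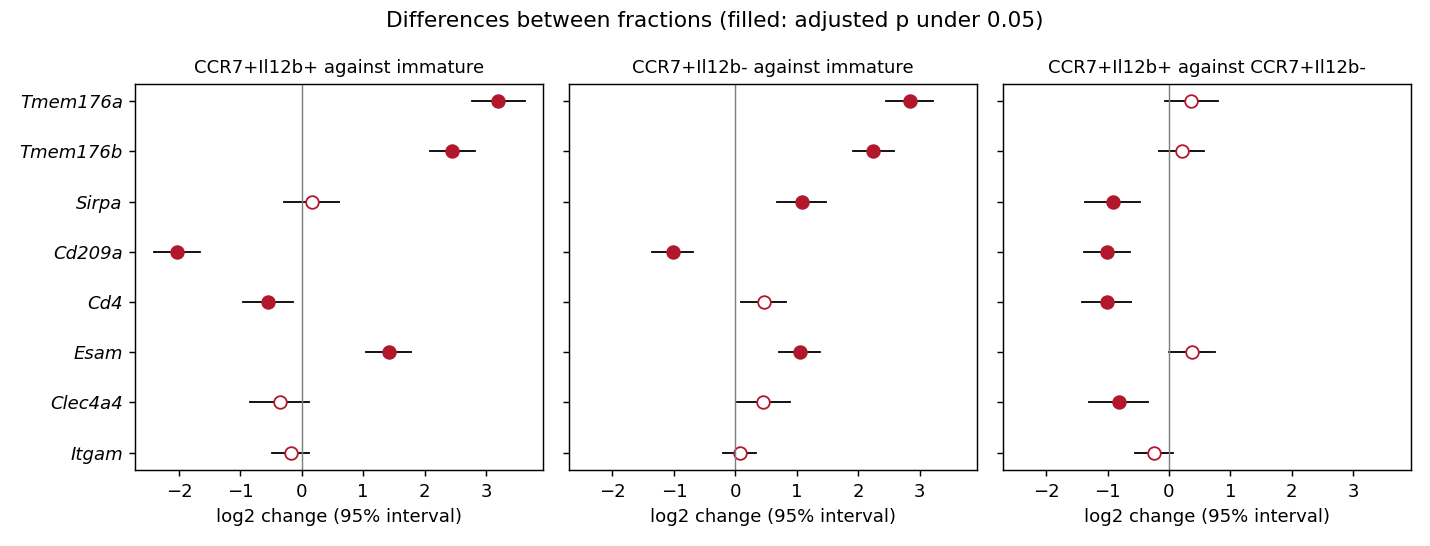
Log2 change of each marker gene (point) with its 95% interval from limma (line) in CCR7+Il12b+ against immature, CCR7+Il12b- against immature and CCR7+Il12b+ against CCR7+Il12b- cells; filled points have an adjusted p under 0.05. Tmem176a, Tmem176b and Esam lie to the right against immature cells in both fractions, Cd209a lies to the left in all 3 panels, and the 4 filled points of the last panel are all negative.

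Transcription factors and Notch pathway genes tied to the CD11b+ lineage also moved in both directions. Of 10 measured, 3 rose and 3 fell in CCR7+Il12b+ cells, and 5 rose and 2 fell in CCR7+Il12b- cells. Relb, an NF-kB subunit needed by CD11b+ spleen cells, rose by 3.15 ± 0.14 in CCR7+Il12b+ cells and 2.98 ± 0.12 in CCR7+Il12b- cells, and Irf4 by 0.88 ± 0.24 and 1.02 ± 0.21. Rbpj, the DNA-binding partner of Notch, rose by 0.62 and 0.43. In contrast the receptor gene Notch2 fell by 1.003 ± 0.15 in CCR7+Il12b+ cells and 0.48 ± 0.13 in CCR7+Il12b- cells, and the Notch target Hes1 by 2.53 ± 0.22 and 1.40 ± 0.20. Klf4 fell in CCR7+Il12b+ cells (-0.73 ± 0.19), and its value in CCR7+Il12b- cells was -0.48 (limma adjusted p = 0.0665). Zeb2 showed the order seen for Sirpa, with a rise in CCR7+Il12b- cells (0.86 ± 0.12), a difference of 0.21 in CCR7+Il12b+ cells (limma adjusted p = 0.289) and a fall of CCR7+Il12b+ below CCR7+Il12b- cells (-0.66 ± 0.14, limma adjusted p = 0.0165). Dtx1, another Notch target, rose in CCR7+Il12b- cells by 0.53 ± 0.16 (limma adjusted p = 0.0348), and its value in CCR7+Il12b+ cells was -0.12 (limma adjusted p = 0.646).

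Of 20 other surface and effector genes of the CD11b+ lineage, 1 rose and 6 fell in CCR7+Il12b+ cells, and 6 rose and 2 fell in CCR7+Il12b- cells, with median log2 changes of 0.053 and 0.14. Between the CCR7+ fractions 6 were lower and 0 higher. Lyz2, the gene of lysozyme, fell by 3.11 ± 0.29 in CCR7+Il12b+ cells and 1.45 ± 0.26 in CCR7+Il12b- cells. Csf2rb, which encodes the shared chain of the GM-CSF receptor, was the 1 gene that rose in CCR7+Il12b+ cells (0.96 ± 0.11), and it rose by 0.95 ± 0.098 in CCR7+Il12b- cells. The rises in CCR7+Il12b- cells also included the cytokine gene Ltb (1.24 ± 0.21), the lectin gene Clec4a1 (at least 1.74-fold) and S100a4 (0.94 ± 0.21), the fold being a lower bound because the immature level lay below the background mark. Between CCR7+Il12b+ and CCR7+Il12b- cells the difference was -2.20 ± 0.29 for Cd7, -1.65 ± 0.29 for Lyz2 and -1.38 for both S100a4 and the Fc receptor chain gene Fcer1g. The lectin genes Clec10a, Mgl2, Clec4a2 and Clec4a3 lay below the background mark in all 3 fractions.

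Partners and relatives of the 8 proteins were also measured. Itgb2, whose product pairs with CD11b, fell by 3.23 ± 0.16 in CCR7+Il12b+ cells and 1.29 ± 0.15 in CCR7+Il12b- cells, and Icam1, a ligand of that integrin, rose by 1.28 ± 0.12 and 1.12 ± 0.11. Cd47, the ligand of SIRPα, rose by 0.67 ± 0.11 and 0.42 ± 0.10. In total 3 of 9 partner and ligand genes rose and 4 fell in CCR7+Il12b+ cells, and 2 rose and 2 fell in CCR7+Il12b- cells. Among 23 measured paralogs 3 rose and 7 fell in CCR7+Il12b+ cells, and 3 rose and 4 fell in CCR7+Il12b- cells. F11r, the gene of the junctional adhesion molecule JAM-A and a relative of Esam, rose by 2.84 ± 0.27 and 2.38 ± 0.24. Cd209d fell at least 2.29-fold in each CCR7+ fraction, bounds again set by the background mark. Of the MS4A relatives of the Tmem176 genes, Ms4a6c fell by 2.87 ± 0.24 in CCR7+Il12b+ cells and 0.81 ± 0.21 in CCR7+Il12b- cells, whereas Ms4a7 rose at least 1.40-fold and at least 1.76-fold.

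**Figure D3:**
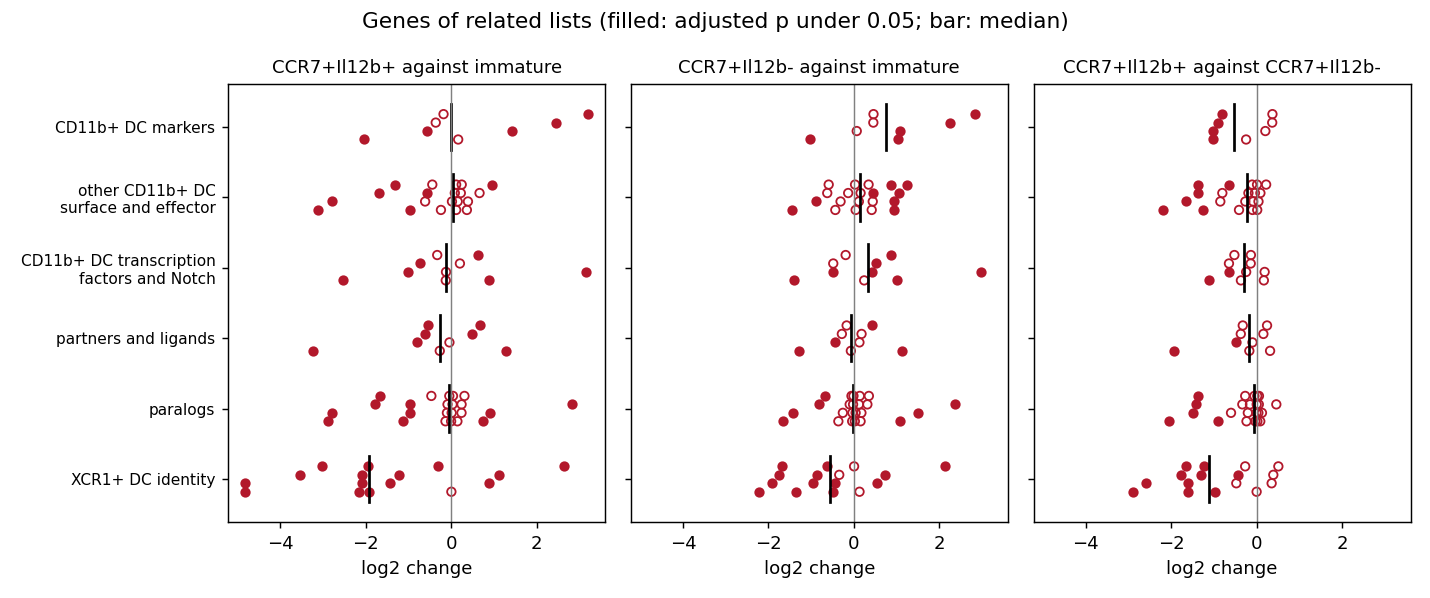
Log2 change of each gene (point) of each list in the same 3 comparisons, filled where the adjusted p is under 0.05, with the list median as a bar. The CD11b+ lists hold changes to both sides of 0, and the median of the 16 XCR1+ identity genes lies at -1.93 in CCR7+Il12b+ and -0.55 in CCR7+Il12b- against immature cells.

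XCR1+ identity genes gave a background for these values. Of 16 measured, 3 rose and 12 fell in CCR7+Il12b+ cells, and 3 rose and 10 fell in CCR7+Il12b- cells, with median log2 changes of -1.93 and -0.55. Between the CCR7+ fractions 10 of 16 were lower and 0 higher. The steepest falls in CCR7+Il12b+ cells were those of Naaa and Tlr3 (-4.82 each), and the uptake receptor gene Ly75 rose by 2.64 ± 0.15. The other risers there were the transcription factor genes Id2 (1.11 ± 0.13) and Batf3 (0.89 ± 0.12). Of 3 genes of dendritic cells in general, Itgax fell in CCR7+Il12b+ cells (-0.97 ± 0.13) and the others did not pass. Xcr1 and Cd8a, the genes behind the label and the sort, stayed above background in each fraction, with Xcr1 at 7.64 to 8.12 in CCR7+Il12b+, 8.94 to 9.85 in CCR7+Il12b- and 10.82 to 10.98 in immature cells.

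Markers of other cell types were set beside the 8 genes. The summed linear intensity of 4 B cell markers was 344 to 373 in CCR7+Il12b+, 487 to 675 in CCR7+Il12b- and 235 to 296 in immature cells, highest in the fraction where Sirpa and Cd4 were highest. Ms4a1 rose in CCR7+Il12b- cells by 1.51 ± 0.17 and in CCR7+Il12b+ cells by 0.91 ± 0.19. Cd79b rose in CCR7+Il12b- cells by 0.57 ± 0.18. In CCR7+Il12b+ cells Cd79b was lower than in immature cells (-0.58 ± 0.20, limma adjusted p = 0.0499). It was also lower there than in CCR7+Il12b- cells (-1.15 ± 0.20, limma adjusted p = 0.00652), so its fractions stood in the same order as those of Cd4. Cd79a lay below the background mark in all fractions, and its rise in CCR7+Il12b- cells (0.62, limma adjusted p = 0.0106) was measured within background signal. Pax5 lay above the mark in each fraction, at 5.49 in CCR7+Il12b+, 5.55 in CCR7+Il12b- and 5.15 in immature cells, and passed in no comparison. The 6 T cell markers summed to 180 to 220 in CCR7+Il12b+, 260 to 283 in CCR7+Il12b- and 230 to 252 in immature cells, the same order as Cd4, with Cd3d, Cd3g and Cd28 below the mark throughout. The part of B and T cell transcripts in the values of Sirpa and Cd4 was not tested.

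The 11 macrophage and monocyte markers summed to 4767 to 6376, 4596 to 6259 and 3977 to 4803 in CCR7+Il12b+, CCR7+Il12b- and immature cells, with Mertk, Fcgr1 and C5ar1 below the mark in all 3 fractions; Spic and Vcam1 rose in both CCR7+ fractions, Adgre1 rose at least 1.29-fold in CCR7+Il12b- cells, Cd68, Cd14 and Ccr2 fell in both, and Csf1r fell in CCR7+Il12b+ cells (-0.58 ± 0.15). Sums of 6 plasmacytoid markers were 676 to 687, 696 to 784 and 999 to 1209 in the same order of fractions, and Siglech, Ccr9, Tcf4 and Bst2 fell in both CCR7+ fractions. The 5 endothelial markers, cells in which Esam is also active, summed to 115 to 138, 139 to 155 and 226 to 257, with Cdh5, Tek and Erg below the mark throughout and Pecam1 falling in both CCR7+ fractions and Kdr rising in CCR7+Il12b- cells (0.37 ± 0.12). Sums ranged from 103 to 104, 99 to 115 and 78 to 93 for 5 NK cell markers and from 159 to 168, 143 to 171 and 130 to 171 for 6 neutrophil markers, of which Ncr1, Klrb1c, Eomes, Gzma, Ly6g, Csf3r and Cxcr2 lay below the mark throughout. The NK sums of both CCR7+ fractions lay above all immature ones, the direction of Tmem176a, Tmem176b and Esam. The macrophage sums overlapped. Only replicate 1 of CCR7+Il12b+ (6376) and replicate 1 of CCR7+Il12b- (6259) exceeded the highest immature sum, that of immature replicate 1 (4803). The part of these transcripts in the values of the 8 markers was not tested.

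**Figure D4:**
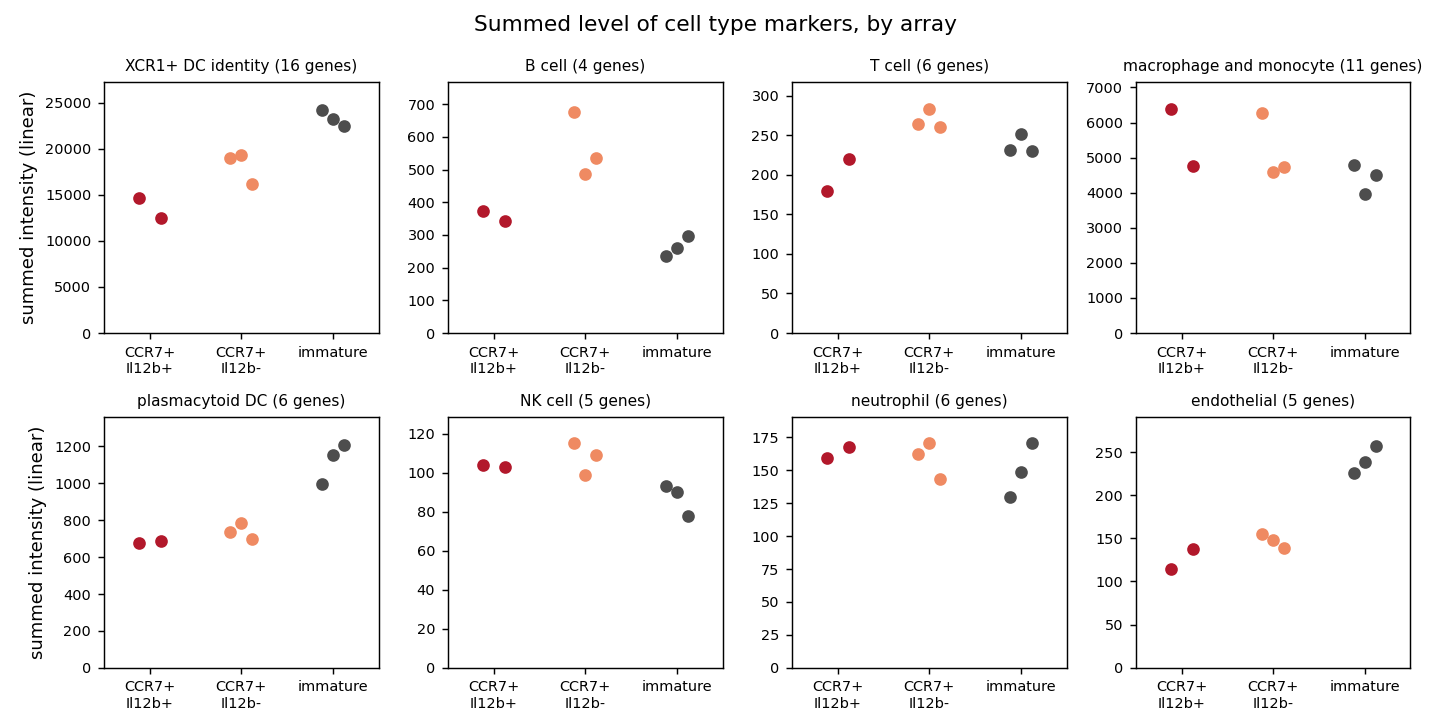
Summed linear intensity of the measured genes of each marker list on each array (points), in CCR7+Il12b+, CCR7+Il12b- and immature cells; every axis starts at 0. XCR1+ identity is highest in immature cells, and the B cell sum is highest in CCR7+Il12b- cells.

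The likeness of profiles was measured as the root mean square difference of log2 values over the 8 arrays, each gene centred on its own mean, against 12265 genes above the background mark (12266 for Clec4a4). Arrays of 1 fraction hold cells sorted in the same way, so these values only describe and do not test anything. Tmem176a lay nearest to Gbp8 (0.155) and Zdhhc14 (0.160), and Tmem176b to Nipal1 (0.137) and Rras2 (0.160). Tmem176b was number 53 in the order of genes nearest to Tmem176a, at 0.333. Sirpa lay nearest to Cadm3 (0.137) and Hap1 (0.168), Cd209a to Was (0.080) and Zfp385a (0.090), Esam to Appl1 (0.099) and Rassf4 (0.116), and Cd4 to Fam222b (0.126) and Spns3 (0.161). Clec4a4 lay nearest to the B cell receptor gene Cd79b (0.175) and to Rint1 (0.177), with Cd4 number 7 in its order at 0.224.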

How the data were processed

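RNA of 8 sorted samples was amplified in 2 rounds from 3 or 20 ng and labelled with biotin, per the labels' protocols; the sources used here do not tie inputs to samples. The deposited values are log2 expression per probe set, made by the authors with RMA (oligo), as the submitters' processing notes name it, without versions or a genome build. Array medians lay between 5.25 and 5.46. RMA equalises arrays, so total RNA per cell cannot be read from them. Symbols came from the platform annotation: 21789 of 35556 rows had 1 symbol, 1621 several and 12146 none. For 999 genes with several rows that of highest mean stood for the gene; each marker had 1. The background mark of 4.98 is the 95th percentile over 1194 genes of olfactory and vomeronasal receptors.

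All arrays entered 1 limma 3.58.1 model (R 4.3.3) with 3 group means, without a filter on low values. Tests were two-sided, with Benjamini-Hochberg adjustment over 19938 genes. The fit was tested on simulated data. Alternatives were other scalings, filters, row rules, fits and omission of single arrays. Whether replicates are separate mice is not stated in the labels, so p-values reflect only how far these samples spread, possibly for technical reasons. Precision is limited by the number of arrays.

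The 8 genes and the other lists were chosen with earlier results of these data known. All 8 are named. Genes of other lists were named from those called with the largest changes (at most 4 a list and comparison) and from counts of 5 or fewer; not every gene that qualifies is named. For each marker with a call it names the 2 nearest profiles, passing over predicted genes. Lists hold 3 to 25 symbols, and those without a row of their own were not analysed here. Where 1 group lay below the mark, a fold is a lower bound with the mark in its place.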

Additional observations from a re-analysis of the deposited data

Results flagged for a closer look

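The difference from immature cells was not equal in the 2 CCR7+ fractions for Cd209a, Cd4 and Sirpa, by the direct test between these fractions. The log2 change of CCR7+Il12b+ minus CCR7+Il12b- was -1.01 for Cd209a, -1.02 for Cd4 and -0.91 for Sirpa (limma, n = 2 against 3), and each call ended without CCR7+Il12b+ replicate 1. The 2 CCR7+Il12b+ arrays lay below all 3 CCR7+Il12b- arrays for each of them. The Cd4 means lay on opposite sides of the immature mean, below it in CCR7+Il12b+ cells (limma adjusted p = 0.0394, a call lost under several alternatives). In CCR7+Il12b- cells Cd4 lay above it without a call (limma adjusted p = 0.0681). Sirpa lay above the immature mean in CCR7+Il12b- cells, and its difference of 0.17 in CCR7+Il12b+ cells did not pass (limma adjusted p = 0.571). Cd209a lay below the immature mean in each. Clec4a4 also passed, at -0.82, but all its values lie below the background mark and its call ended under 5 of 8 omissions of a single array, so no difference of expression is read from it.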

How the results depend on the processing

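The calls of Tmem176a, Tmem176b, Esam and Cd209a against immature cells in both CCR7+ fractions, and that of Sirpa in CCR7+Il12b- cells, held under all alternatives run, with Tmem176a between 3.02 and 3.41 in CCR7+Il12b+ cells when single arrays were left out. Leaving out single arrays gave 712 to 1771 genes called between CCR7+Il12b+ and CCR7+Il12b- cells and 0 to 4 of the 8 markers, the lowest of both without CCR7+Il12b+ replicate 1, and 786 genes without CCR7+Il12b- replicate 2; against immature cells 4982 to 6617 genes were called in CCR7+Il12b+ and 3290 to 4962 in CCR7+Il12b- cells. Values near 0 turned sign without a call. Itgam in CCR7+Il12b- against immature cells was -0.015 with quantile scaling and -0.029 with cyclic loess, and with single arrays left out it ranged from -0.012 (without immature replicate 1) to 0.19. Sirpa in CCR7+Il12b+ against immature cells ranged from -0.039 (without immature replicate 1) to 0.34 with single arrays left out, and was -0.012 without CCR7+Il12b+ replicate 2. Deviations from the group mean correlated at -0.169 to 0.216 between same-numbered arrays and at -0.216 to 0.187 between differently numbered ones. Such deviations within groups of 2 or 3 arrays are bound to each other, so they cannot tell whether replicate numbers pair the samples. With the replicate block the markers called numbered 4 in CCR7+Il12b+ and 5 in CCR7+Il12b- against immature cells and 3 between the CCR7+ fractions. Over all genes the block gave 5767, 4318 and 1153 calls in the same order, against 6383, 4706 and 1412 without it. Cd4 in CCR7+Il12b+ against immature cells (limma adjusted p = 0.0916) and Clec4a4 between the CCR7+ fractions (limma adjusted p = 0.0878) lost their calls. The block changed no other marker's call. Cd4 in CCR7+Il12b+ against immature cells also lost its call with quantile scaling (adjusted p = 0.0778) and cyclic loess (adjusted p = 0.0533), while Cd4 in CCR7+Il12b- cells gained one with quantile scaling (adjusted p = 0.0376), cyclic loess (adjusted p = 0.0397), genes above the median level (adjusted p = 0.0484), a fit of the compared groups alone or without either CCR7+Il12b+ array (adjusted p = 0.0415 each) and without CCR7+Il12b- replicate 2 (adjusted p = 0.0334). The cause was not tested. Clec4a4 could not be tested with either filter on low levels, nor Itgam with the stricter one. Signal near background limits both genes.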

Other observations

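The markers also differed among the immature arrays. Immature replicate 3 had the highest value of its fraction for 7 of the 8 markers, Esam being the exception, and immature replicate 1 had the lowest for 7 of 8, where 35.1% of all genes were highest in replicate 3 and 43.4% lowest in replicate 1. Tmem176a differed by 0.78 on the log2 scale and Sirpa by 0.70 between these 2 arrays. Of the other CD11b+ surface and effector genes 9 of 20 were highest in replicate 3, of the transcription factor and Notch genes 6 of 10, of the XCR1+ identity genes 4 of 16 and of the B cell markers 3 of 4. XCR1+ identity genes were lowest in replicate 3 for 9 of 16. What sets these arrays apart was not tested.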
